A study of Macaca mulatta with 20 samples.

Results

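Fc receptors bind the constant part of antibodies and tie antibody recognition to the response of phagocytes and natural killer (NK) cells. The genes followed here encode such receptors of myeloid and NK cells and the adaptor that carries their signal, namely FCGR1A, FCGR1B, FCGR2A, FCGR2B, FCGR3A, FCGR3B, FCER1G and FCAR. The members were taken by name, as all non-control probes whose annotated gene is 1 of these 8 and whose signal was well above background on at least 5 of 20 arrays. Of the 8 genes, 6 were measured, by 9 probes, among 15929 gene names and 19961 probes that met the same limit. No probe on the array carries the name FCGR1A or FCGR3B. All 9 member probes were well above background on 20 of 20 arrays, none was saturated on any array, and each was read from 1 spot.

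The RNA came from whole blood of male rhesus macaques of Chinese origin that received 10 Gy of X-rays to the whole thorax without a mitigating drug, and from the same cohort 3 days before exposure. The labels do not say that each array is a separate animal, so errors and p-values measure the spread between these samples. Whole blood was drawn into PAXgene tubes, RNA with an integrity number above 8.0 was depleted of globin transcripts, and 5 arrays each were hybridized for blood drawn before irradiation (pre-irradiation) and 2, 5 and 30 days after it. The cohort held 8 animals, comparisons in the study were paired by animal, and in 1 case RNA of 2 animals was pooled, on an array that the labels do not name. No unirradiated animals are among the 20 arrays, so time and exposure cannot be told apart. The arrays lay on 5 slides, each with 1 array of each group, and the position on the slide was the same for all arrays of a group, so position and group cannot be told apart. The share of spots above background ran from 50.9% to 67.3% per array.

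In blood, the activating receptors for immunoglobulin G are divided among cell types. FCGR1A encodes the high-affinity receptor CD64 of monocytes and activated neutrophils, and FCGR1B is its shortened human copy. FCGR2A encodes CD32A of monocytes, neutrophils and platelets, and FCGR3A encodes CD16A of NK cells and of the monocyte subset named after it, while FCGR3B is the human CD16 of neutrophils. FCGR2B encodes the inhibitory receptor, which carries a tyrosine-based inhibitory motif and recruits phosphatases, and it is best known from B cells and myeloid cells. FCER1G encodes the common gamma chain, whose activating motif signals for FCGR1A, FCGR3A and FCAR. FCAR encodes CD89, the receptor of neutrophils and monocytes for immunoglobulin A.

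Probes of 60 bases were designed on human transcripts, and their sequences show which stretch of each receptor was read. The array annotation places them on the human build hg19. The probes for FCGR2B are shown in full because they read its inhibitory part and its outer part separately, and those for FCGR1B and FCAR because these varied most between arrays.
FCGR2B A_23_P34644, chr1:161647120-161647289, plus strand, split over 170 bases by an intron: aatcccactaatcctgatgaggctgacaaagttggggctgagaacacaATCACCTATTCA
FCGR2B A_33_P3327617, chr1:161642959-161643018, plus strand: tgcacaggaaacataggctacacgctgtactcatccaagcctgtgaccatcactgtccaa
FCGR1B A_23_P63390, chr1:120927294-120927353, minus strand: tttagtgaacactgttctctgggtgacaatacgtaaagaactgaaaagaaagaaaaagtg
FCAR A_24_P348265, chr19:55396800-55396859, plus strand: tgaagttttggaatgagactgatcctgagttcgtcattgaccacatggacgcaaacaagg
The capitals mark the codons that open the inhibitory motif of FCGR2B. The other FCGR2B probe lies 5′ of it.

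Probes of FCER1G and FCGR3A are given by 30 bases each, to show that the 2 probes of FCER1G read different transcript ends.
FCER1G A_23_P160849, first 30 bases, chr1:161188875-161188934, plus strand: agtggttcctcctccctgttaaagactaat
FCER1G A_33_P3272628, last 30 bases, chr1:161190430-161190489, plus strand: ttaaagataaagtgggAATAAActtttatt
FCGR3A A_23_P200728, first 30 bases, chr1:161511829-161511888, minus strand: tgcagggactgtaaaaccaccttttctgct
The capitals mark a polyadenylation signal. A_33_P3272628 is annotated to 1 alternative transcript of FCER1G, and A_23_P160849 to the RefSeq transcript and others. FCGR2A was read by A_23_P85716 at chr1:161488022-161488081 and FCAR also by A_23_P208768 at chr19:55401659-55401718, both on the plus strand. Mismatches between these human probes and macaque transcripts were not analysed here. In a rhesus gene table from RefSeq (assembly T2T-MMU8v2.0), 6 of the 8 members were found, 5 by symbol and FCGR3A as a synonym of FCGR3. FCGR1B and FCGR3B were not matched, so the FCGR1B probe is a probe of the FCGR1 family here and cannot be given to a single macaque gene.

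Signals are given as multiples of the 75th percentile of the same array. Changes are log2 differences between the arrays of 2 groups, given ± SE, from limma fits in which replicate numbers formed blocks, and adjusted p-values are Benjamini-Hochberg values over all 19961 probes. Calling a probe took an unadjusted p below 0.005 together with a false discovery rate below 10%. Levels of different probes cannot be set against each other.

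**Figure D1:**
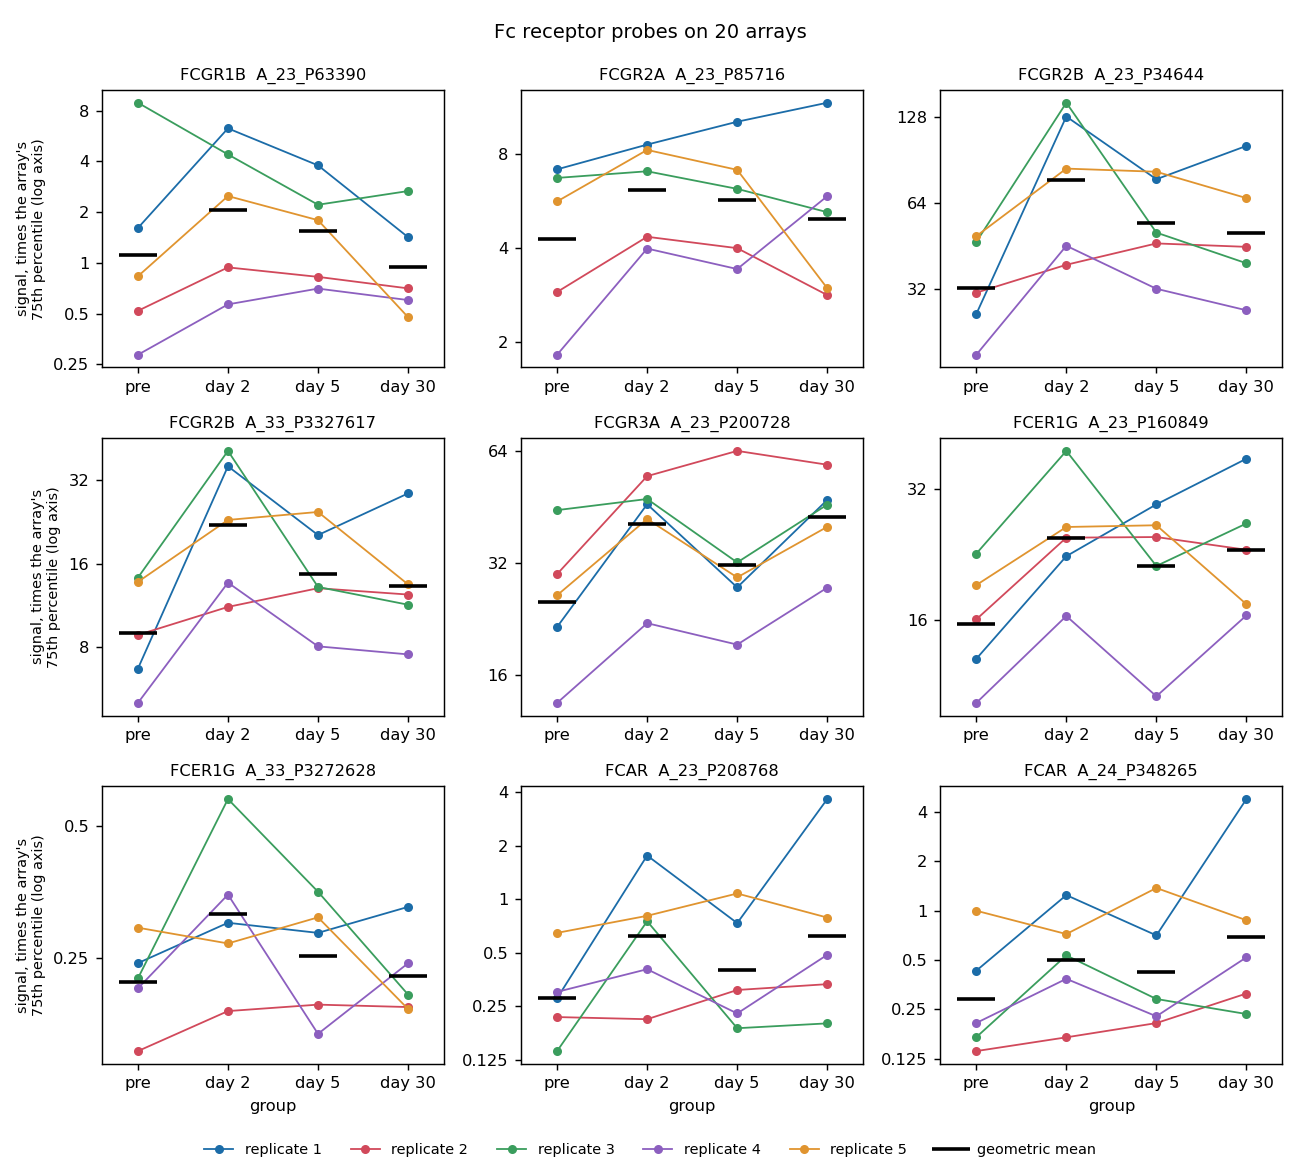
Signal of the 9 Fc receptor probes (log axis, in multiples of the 75th percentile of the array) in the 4 groups; each coloured line joins the arrays of 1 replicate number and black bars are geometric means. Both FCGR2B probes were highest at day 2 in replicates 1, 3, 4 and, for A_23_P34644, 5, and FCAR of replicate 1 stood above all other arrays at day 30.

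Across the receptors, the fitted change from pre-irradiation to day 2 was above 0 for 9 of 9 probes, but 0 of 9 were called, against 0.0601% of all probes tested, and the groups overlapped for every probe, where 0.536% of all probes lay wholly higher. At an unadjusted p under 0.05, 7 of the 9 probes were higher and 0 lower at day 2, where 8.47% of all probes were higher and 6.55% lower. Higher in every pair were 5 of 9 probes at day 2 (6.17% of all probes), 2 at day 5 (7.24%) and 2 at day 30 (7.41%). At day 5 the count was 4 of 9 higher, against 7.35% of all probes, and at day 30 it was 3 of 9, against 7.43%, with 0 of 9 lower on either day (3.82% and 10.1% of all probes). The median change of the 9 probes was 0.78 at day 2, 0.46 at day 5 and 0.56 at day 30 on the log2 scale, beside medians over all probes of -0.04, 0.03 and -0.02. With normexp background correction the day 2 median of the 9 probes was 0.42 while that of all probes was 0.17. Normexp models the background in place of subtracting it. Here it started from mean spot signals without detrending, and an offset of 50 was added before taking logs. The parts of the model, the offset and the starting signal in the changes under normexp were not tested. Without replicate 1 in the main fit the day 30 median was 0.31. Probes of 1 gene share their source, and the pre-irradiation arrays are common to all 3 days, so these counts are not independent of each other. No member was called at day 5 or day 30 either, when 0% of all probes were called, and groups overlapped for each of them (0.326% and 0.852% of all probes lay wholly higher). In whole blood, more or fewer cells of a type and more or less of a transcript per cell cannot be told apart.

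Each slide held 1 array of each group, so the day 2 comparison could also be read within slides. The pre-irradiation and day 2 arrays of a slide never had the same replicate number, so this reading gives up the pairing and sets different replicates against each other. On that reading the day 2 array was higher on 5 of 5 slides for FCGR3A, FCER1G A_23_P160849 and FCAR A_23_P208768, on 4 for both FCGR2B probes and FCER1G A_33_P3272628, on 3 for FCGR1B and FCGR2A and on 2 for FCAR A_24_P348265. Higher on every slide were thus 3 of 9 probes at day 2 (5.36% of all probes), and likewise 0 at day 5 (4.75%) and 1, FCER1G A_23_P160849, at day 30 (3.81%). With the slide as the block in place of the replicate number, 6 of 9 probes were higher at an unadjusted p under 0.05 at day 2 (6.55% of all probes), 0 at day 5 (3.39%) and 2 at day 30 (4.24%), and 0 were lower on any day (5.33%, 1.62% and 6.59%).

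**Figure D2:**
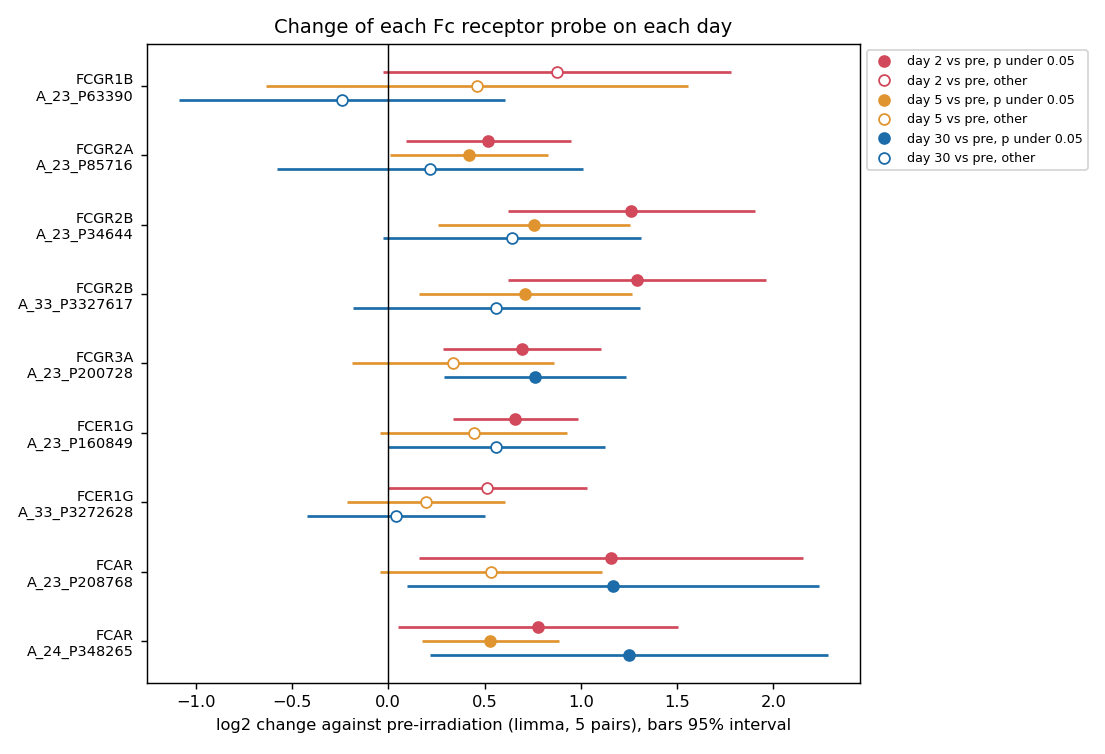
Log2 change of each Fc receptor probe against pre-irradiation at day 2, day 5 and day 30, with the 95% interval from limma over 5 pairs; filled points have an unadjusted p under 0.05. All 9 points of day 2 lie above 0, and the points of day 30 run from -0.24 for FCGR1B to 1.25 for FCAR.

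The inhibitory receptor FCGR2B had the largest fitted changes among the IgG receptors at day 2 and day 5 over all 5 pairs. Without replicate 3 its 2 probes were at 1.17 and 1.24 at day 2 and 0.92 and 0.92 at day 5, and the FCGR1B probe was above them at 1.35 and 1.08. With A_23_P34644, whose bases end in the inhibitory motif, signals before irradiation were 26.0, 31.0, 46.6, 18.7 and 48.9 times the 75th percentile in replicates 1 to 5. At day 2 they were 129, 38.8, 144, 45.2 and 84.5. The 3 highest arrays of day 2 lay above every pre-irradiation array, while replicates 2 and 4 lay within that group's range, so the groups overlapped. The log2 change was 1.26 ± 0.28, a 2.40-fold difference with a 95% interval of 0.62 to 1.91 on the log2 scale, higher in 5 of 5 pairs (limma adjusted p = 0.166).

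At day 5 the same probe read 77.5, 46.1, 50.3, 31.9 and 82.3, and at day 30 it read 101, 44.8, 39.3, 26.8 and 66.5. Replicate 1 was the highest array of day 30, and replicate 3 had gone from the highest of day 2 to below its own starting value. The change from pre-irradiation was 0.76 ± 0.21 at day 5 (limma adjusted p = 0.331) and 0.64 ± 0.29 at day 30 (adjusted p = 0.298). Without replicate 1 the day 30 change was 0.31.

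The second FCGR2B probe, A_33_P3327617, followed the first with a Pearson r of 0.987 over the 20 arrays. It read 6.70, 8.86, 14.3, 5.04 and 13.8 before irradiation and 35.9, 11.2, 40.8, 13.7 and 23.0 at day 2. Replicates 1 and 3 were again highest at day 2, and replicates 2 and 4 again lay within the range of the pre-irradiation arrays. Its log2 changes were 1.29 ± 0.29 at day 2 (limma adjusted p = 0.166), 0.71 ± 0.24 at day 5 (0.369) and 0.56 ± 0.33 at day 30 (0.403), the last at 0.18 without replicate 1.

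Whether these probes read FCGR2B alone cannot be settled on this array. The probe named FCGR2C, which is no member, lists the same transcripts as the FCGR2A probe, yet its signals followed both FCGR2B probes (r = 0.988 and 0.972 over 20 arrays) more closely than the FCGR2A probe (r = 0.659). FCGR2C is a human hybrid of FCGR2B and FCGR2A, and near-identical copies of the family can share hybridization. The changes of its probe were 1.14 ± 0.25 at day 2, 0.65 ± 0.20 at day 5 and 0.68 ± 0.24 at day 30.
The call of FCGR2B at day 2 depended on the fit. Both probes were called when all 20 arrays entered 1 fit (adjusted p = 0.0527 and 0.0695), when testing was limited to probes above background on 20 of 20 arrays (0.0950 and 0.0963), with the deposited log2 values (0.0434 for both) and without replicate 2 (0.0752 and 0.0754). These settings also called more of all probes, at 343 of 19961, 190 of 15339, 327 of 5653 and 588 of 19961 in that order, against 12 of 19961. The day 2 changes of FCGR2B were lower with normexp background correction, at 0.74 (A_23_P34644) and 0.78 (A_33_P3327617), with a limma adjusted p of 0.339 for both.

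FCGR2A, the activating counterpart of FCGR2B, had a smaller fitted change than FCGR2B on each day when read by A_23_P85716 alone. The FCGR2C probe, which lists the same transcripts, had larger changes than A_23_P85716 on each day, given above. Before irradiation A_23_P85716 read 7.15, 2.89, 6.71, 1.82 and 5.64 times the 75th percentile in replicates 1 to 5. At day 2 it read 8.58, 4.35, 7.05, 3.99 and 8.25. Each replicate was higher at day 2 than at its own start, by between 0.07 (replicate 3) and 1.13 (replicate 4) on the log2 scale, and the groups overlapped. The change was 0.52 ± 0.18, with a 95% interval of 0.09 to 0.95 (limma adjusted p = 0.268).
At day 5 the signals were 10.2, 4.00, 6.19, 3.43 and 7.12, a change of 0.42 ± 0.18 (limma adjusted p = 0.436). At day 30 they were 11.7, 2.83, 5.21, 5.87 and 2.98, higher in 2 and lower in 3 of 5 pairs, and the 95% interval of the change ran from -0.58 to 1.01. Replicate 1 was the highest array in each group, and 62.9% of the sum of squares over the 20 arrays lay between replicate numbers against 8.62% between groups. With normexp background correction in place of the deposited background subtraction, the day 2 change was 0.10 (limma adjusted p = 0.838), beside a shift of the median of all probes to 0.17.

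Set side by side within pairs, the log2 change of FCGR2B (A_23_P34644) exceeded that of FCGR2A in 4 of 5 pairs at day 2, by a mean of 0.74 with a range from -0.26 to 2.04 over the pairs. An exact two-sided sign-flip test gave p = 0.25, where 5 pairs allow no value under 0.0625, and 0.375 after adjustment over the 6 such differences computed. Differences averaged 0.34 at day 5 and 0.43 at day 30, with exact p-values of 0.188 and 0.312. No such test of 5 pairs could pass 0.05, so whether the inhibitory and the activating receptor differed in their change was not settled. These differences use A_23_P85716 for FCGR2A, and the FCGR2C probe was not compared in this way. Against FCGR3A the mean difference was 0.57 at day 2, 0.42 at day 5 and -0.12 at day 30, with exact p-values of 0.188, 0.188 and 0.688.

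FCGR3A, the CD16 receptor of NK cells and CD16 monocytes, was higher in every pair at both day 2 and day 30. Its probe read 21.5, 29.8, 44.4, 13.4 and 26.2 before irradiation. It read 46.0, 54.8, 47.5, 22.0 and 42.0 at day 2, then 27.5, 64.1, 32.1, 19.3 and 29.2 at day 5 and 47.3, 58.8, 45.9, 27.4 and 40.0 at day 30. Replicate 4 was the lowest array of every group. The groups overlapped with each other, while within pairs FCGR3A was higher in 5 of 5 at day 2, in 4 of 5 at day 5 and in 5 of 5 at day 30. The log2 changes were 0.69 ± 0.18 at day 2 (95% interval 0.28 to 1.11, limma adjusted p = 0.195), 0.33 ± 0.23 at day 5 (adjusted p = 0.604) and 0.76 ± 0.21 at day 30 (0.29 to 1.23, adjusted p = 0.161). At day 5 the change was 0.14 without replicate 2 and 0.53 without replicate 3.
FCGR3A passed the call limits at day 2 when all 20 arrays entered 1 fit (limma adjusted p = 0.0988) and at day 30 when testing was limited to probes above background throughout (0.0950). These settings called 343 of 19961 and 695 of 15339 probes, against 12 and 0 of 19961 in the main fits. With normexp background correction the day 2 change was 0.20 and the day 30 change 0.59.

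Markers of NK cells, for which FCGR3A is a typical receptor, had negative median changes at day 2 and day 5. Of 9 NK cell genes tested, 7 were lower at day 2 at an unadjusted p under 0.05 and 0 higher, with a median change of -1.34, and 5 were lower at day 5 (median -0.77). At day 30, 0 were lower, 1 was higher (NCAM1) and the median was -0.02. Of all probes, 6.55% were lower at day 2 and 3.82% at day 5, and 10.1% were lower and 7.43% higher at day 30. KLRC1, a lectin-like NK receptor, changed by -1.71 ± 0.35 at day 2 (limma adjusted p = 0.153) and PRF1, the pore-forming perforin, by -1.42 ± 0.29. The list was not uniform, as the fitted change was above 0 for 2 of the 9 genes at day 2, and likewise for 2 at day 5. None of the 9 genes was called on any of the 3 days. The mean level of the list was -0.75 to 0.38 before irradiation and -1.44 to -0.85 at day 2 in log2 units relative to the 75th percentile.
Over the 20 arrays the FCGR3A signal had a Pearson r of -0.43 with the mean of the NK list (Spearman rho -0.50, and r = -0.31 without the 2 arrays farthest from the median), 0.63 with the mean of 7 CD16 monocyte genes and 0.73 with that of 8 monocyte genes. Without the 2 arrays farthest from the median of each list, the last 2 values were 0.75 and 0.49, so that their order turned. Arrays of 1 replicate number may share an animal, so these values are descriptions, and the part of cell mixture in the FCGR3A result was not tested.

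**Figure D3:**
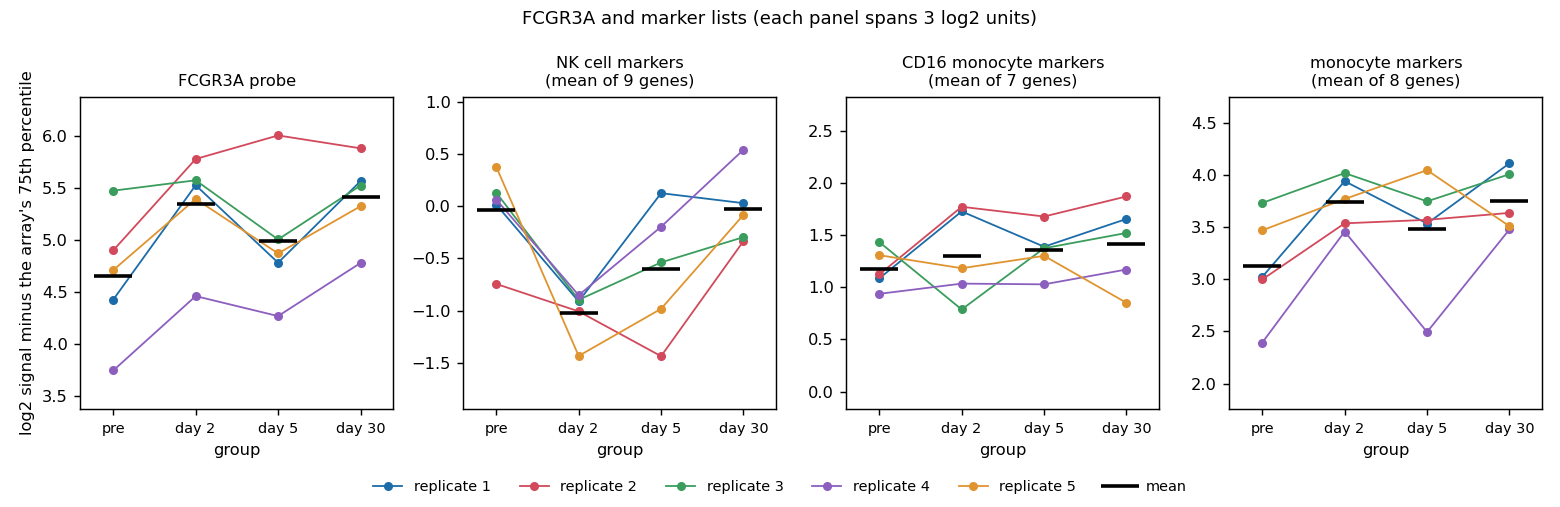
Log2 level relative to the 75th percentile of the array for the FCGR3A probe and for the means of the NK cell, CD16 monocyte and monocyte marker lists in the 4 groups, with lines joining arrays of 1 replicate number and black bars for means. FCGR3A was higher at day 2 in 5 of 5 pairs, while the NK cell list was at -1.44 to -0.85 at day 2.

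FCER1G, the gamma chain that can carry the signal of FCGR3A, FCGR1A and FCAR, had the narrowest range of pair differences of the 9 probes at day 2, read with its main probe. Its main probe, A_23_P160849, read 13.1, 16.1, 22.8, 10.3 and 19.3 before irradiation and 22.5, 24.8, 39.2, 16.4 and 26.2 at day 2. The 5 pair differences lay between 0.44 and 0.78 on the log2 scale, although the groups overlapped. The change was 0.66 ± 0.14, with a 95% interval of 0.34 to 0.98 (limma adjusted p = 0.166). It was called when testing was limited to probes above background on 20 of 20 arrays (adjusted p = 0.0950), where 190 of 15339 probes were called.
At day 5 it read 29.6, 24.9, 21.3, 10.7 and 26.5 and at day 30 it read 37.6, 23.2, 26.7, 16.4 and 17.4. Replicate 1 was the highest array on both days, while replicate 5 at day 30 was below its start. The changes were 0.44 ± 0.21 at day 5 (limma adjusted p = 0.477) and 0.56 ± 0.25 at day 30 (adjusted p = 0.286). With normexp background correction the day 2 change was 0.15, and without replicate 1 the changes at day 5 and day 30 were 0.26 and 0.32.

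The alternative-transcript probe of FCER1G, A_33_P3272628, had r = 0.519 with the main probe over the 20 arrays. It read 0.243, 0.152, 0.224, 0.212 and 0.293 before irradiation and 0.300, 0.188, 0.578, 0.349 and 0.269 at day 2. Replicate 3 stood above the other arrays at day 2, and replicate 5 was lower than at its start. Changes were 0.52 ± 0.22 at day 2 (limma adjusted p = 0.334), 0.20 ± 0.18 at day 5 and 0.04 ± 0.20 at day 30, the last with a 95% interval from -0.42 to 0.50. Without replicate 3 the change was 0.30 at day 2 and 0.08 at day 5.

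FCAR, the IgA receptor, spanned a 26.1-fold range over the 20 arrays with 1 probe and a 34.3-fold range with the other. With A_23_P208768 the signals were 0.278, 0.218, 0.140, 0.302 and 0.647 before irradiation. They were 1.76, 0.212, 0.752, 0.404 and 0.807 at day 2, 0.734, 0.309, 0.188, 0.228 and 1.08 at day 5, and 3.65, 0.333, 0.201, 0.487 and 0.789 at day 30. Replicate 1 was highest at day 2 and day 30, and its array at day 30 was the brightest of all 20, while replicates 2 to 4 stayed below the 75th percentile on every array. The changes were 1.16 ± 0.43 at day 2 (limma adjusted p = 0.283), 0.53 ± 0.25 at day 5 (0.472) and 1.17 ± 0.47 at day 30 (0.253).

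The other FCAR probe, A_24_P348265, had r = 0.946 with the first over the 20 arrays. It read 0.430, 0.139, 0.169, 0.207 and 0.997 before irradiation, 1.24, 0.169, 0.533, 0.384 and 0.719 at day 2, 0.706, 0.206, 0.289, 0.227 and 1.37 at day 5, and 4.77, 0.312, 0.234, 0.519 and 0.873 at day 30. Again replicate 1 at day 30 stood apart, and replicate 5 was the only one lower than at its start at day 2 and day 30. Its changes at day 2, day 5 and day 30 were 0.78 ± 0.31, 0.53 ± 0.15 and 1.25 ± 0.45 (limma adjusted p = 0.309, 0.331 and 0.223). At day 5 it was higher in 5 of 5 pairs.
Without replicate 1 the day 30 changes of the 2 FCAR probes were 0.53 and 0.69 (limma adjusted p = 0.291 and 0.346), and the day 2 changes 0.78 and 0.59. At day 5 the change of A_23_P208768 was 0.32 without it. Under normexp the day 2 changes were 0.59 (A_23_P208768) and 0.42 (A_24_P348265), and those of A_23_P208768 were 0.31 at day 5 and 0.70 at day 30.

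The FCGR1 family probe, FCGR1B A_23_P63390, depended most on a single starting value. It read 1.61, 0.520, 8.91, 0.285 and 0.833 before irradiation, 6.28, 0.941, 4.40, 0.568 and 2.49 at day 2, 3.79, 0.826, 2.21, 0.704 and 1.79 at day 5 and 1.42, 0.706, 2.67, 0.602 and 0.477 at day 30. Replicate 3 had the highest of all 20 values before irradiation and was lower on each later day, while the other replicates were all higher at day 2 and at day 5. Changes were 0.87 ± 0.39 at day 2 (limma adjusted p = 0.345), 0.46 ± 0.47 at day 5 (adjusted p = 0.738) and -0.24 ± 0.37 at day 30 (adjusted p = 0.767). With 1 replicate left out, the day 2 change ran from 0.60 to 1.35 and the day 5 change from 0.25 to 1.08, and with normexp background correction these changes were 0.30 and 0.28.
Without replicate 3 they were 1.35 at day 2 (limma adjusted p = 0.228), 1.08 at day 5 (adjusted p = 0.381) and 0.13 at day 30. Of the sum of squares over the 20 arrays, 70.2% lay between replicate numbers and 10.5% between groups.

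Between the days after exposure, 0 of 9 probes were called. From day 2 to day 5, 9 of 9 fitted changes were below 0 (median -0.36) with 0 lower at an unadjusted p under 0.05, against 1.39% of all probes. Under normexp 4 of the 9 were above 0 and their median was -0.01, while that of all probes was -0.13. From day 5 to day 30, 0 of 9 were higher or lower by that measure, against 1.84% and 6.64% of all probes. From day 2 to day 30, 2 of 9 were lower and 0 higher, where 7.44% of all probes were lower, 5.4% higher and 0.0501% called. These were the FCGR1 family probe, at -1.12 ± 0.39 (limma adjusted p = 0.363), and FCGR2B A_33_P3327617, at -0.73 ± 0.28 (0.365). FCGR3A and the main FCER1G probe differed between day 2 and day 30 by 0.07 (95% interval -0.24 to 0.38) and -0.10 (-0.61 to 0.42).

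The other genes of the pathway were followed by 5 lists, whose members are given as counts at an unadjusted p under 0.05. Of all probes, 8.47% were higher and 6.55% lower by that measure at day 2, 7.35% and 3.82% at day 5, and 7.43% and 10.1% at day 30. A count near these shares does not set a list apart. Among 14 other immunoglobulin receptors measured, of 19 listed, 2 were higher and 3 lower at day 2, 2 and 2 at day 5, and 1 and 2 at day 30. Those higher at day 2 were FCGR2C, given above, and FCGRT, the neonatal receptor that recycles IgG, at 0.66 ± 0.20 (limma adjusted p = 0.235), which was 0.51 ± 0.16 at day 5.
FAIM3, a receptor for immunoglobulin M on lymphocytes, was lower in 5 of 5 pairs on each day, by -0.69 ± 0.18, -0.62 ± 0.14 and -0.98 ± 0.18. FCER2, the low-affinity IgE receptor of B cells, was at -0.68 ± 0.28 at day 2, and FCRLA, an Fc receptor-like protein of B cells, at -0.87 ± 0.18 at day 5. The median of the list was -0.18, -0.14 and -0.03.

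Of 8 adaptors with signalling motifs other than FCER1G, TYROBP alone was higher, at 0.67 ± 0.17 at day 2, 0.60 ± 0.17 at day 5 and 0.59 ± 0.21 at day 30. It encodes DAP12, the partner chain of many myeloid and NK receptors. The number lower was 5 at day 2, 3 at day 5 and 4 at day 30, with list medians of -0.58, -0.36 and -0.55. They included CD3G (-0.63 ± 0.20) and CD3D (-0.57 ± 0.18) of the T cell receptor and CD79A (-0.58 ± 0.18) and CD79B (-0.63 ± 0.23) of the B cell receptor at day 2. At day 30 CD3E was at -0.64 ± 0.18 and HCST, the adaptor DAP10, at -0.56 ± 0.20. CD247, the zeta chain that can pair with FCGR3A in NK cells, was at -0.42 ± 0.23 at day 2 (limma adjusted p = 0.423), and it was picked after its value was seen.

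Among 8 receptors that pair with FCER1G, of 11 listed, 3 were higher and 1 lower at day 2 and 0 in either direction at day 5 and day 30. LILRA2 was at 1.29 ± 0.33 at day 2 (limma adjusted p = 0.195) and LILRA1 at 0.84 ± 0.22 (0.196), both activating leukocyte receptors of myeloid cells. LILRA1 was at 0.38 ± 0.16 at day 5 (limma adjusted p = 0.446). OSCAR had the smallest p of the list at day 30, at -0.35 ± 0.20 (0.385).

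Of 25 genes of Fc receptor signalling, 7 were higher and 2 lower at day 2, 0 and 3 at day 5, and 3 and 2 at day 30, with medians of 0.22, 0.01 and 0.10. The Src-family kinases LYN and FGR of myeloid cells were at 0.69 ± 0.18 and 0.62 ± 0.15 at day 2, each higher in 5 of 5 pairs, and PRKCD, a protein kinase C, at 0.51 ± 0.17. FYN, a Src-family kinase of T cells, was at -0.64 ± 0.19 at day 2, -0.53 ± 0.19 at day 5 and -0.63 ± 0.20 at day 30.
At day 5, VAV2, an exchange factor, was at -0.60 ± 0.19 and PIK3R1, the regulatory subunit of phosphoinositide 3-kinase, at -0.40 ± 0.15. At day 30, the ubiquitin ligase CBL was at 0.77 ± 0.24, the adaptor GAB2 at 0.73 ± 0.20 and FGR at 0.66 ± 0.19.

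For the phagocytic cup and actin, 2 of 15 genes were higher at day 2, 0 at day 5 and 3 at day 30, with 1 lower at day 30. PAK1, a kinase of actin remodelling, was at 1.02 ± 0.30 at day 2. MARCKS, which binds actin at the membrane, was at 0.69 ± 0.21 at day 30, ARPC3 of the Arp2/3 complex at 0.55 ± 0.17 and CFL1, the actin-severing cofilin, at -0.50 ± 0.19. ARPC3 had the smallest p at day 5, at 0.34 ± 0.16 (limma adjusted p = 0.479). No gene of the 5 lists was called on any day.

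**Figure D4:**
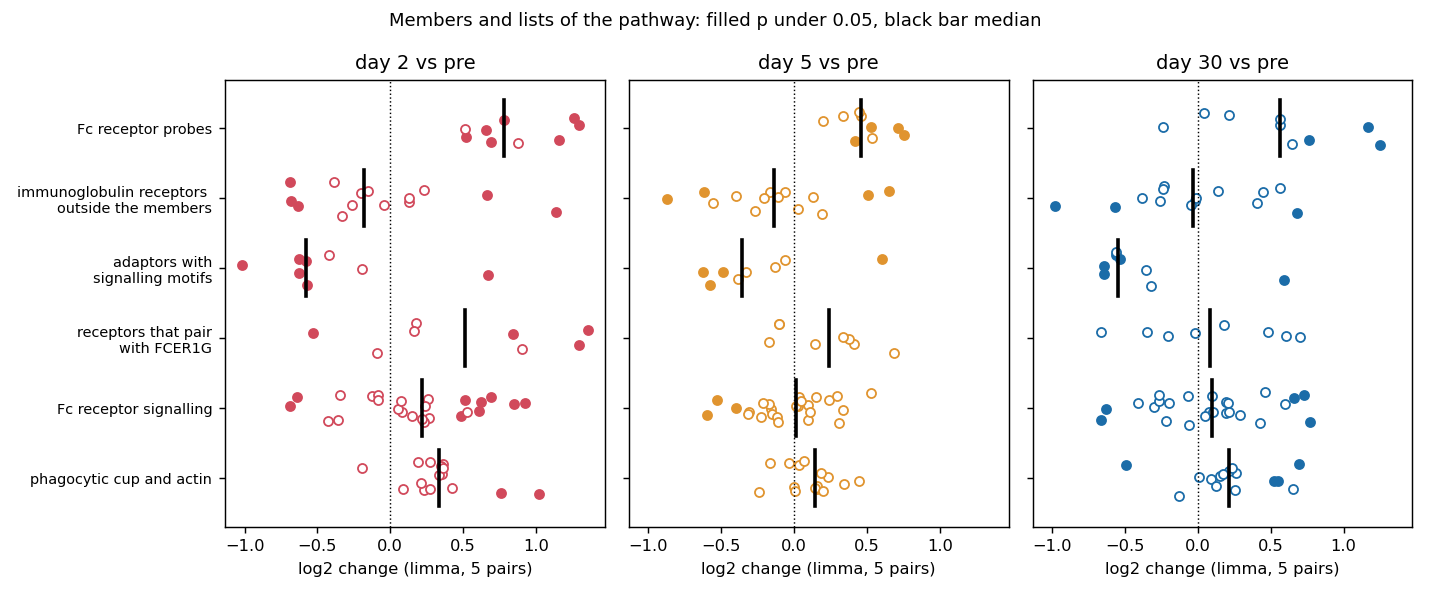
Log2 changes against pre-irradiation of the 9 Fc receptor probes and of the genes of 5 pathway lists at each day, from limma over 5 pairs; filled points have an unadjusted p under 0.05 and black bars are medians. At day 2 the medians run from -0.58 for adaptors to 0.78 for the Fc receptor probes.

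Of 11 neutrophil genes, 8 were higher at day 2, 6 at day 5 and 5 at day 30 and 0 lower, with medians of 0.997, 0.64 and 0.74. Of 8 monocyte genes, 5, 3 and 5 were higher, with medians of 0.61, 0.39 and 0.63, and of 7 platelet genes 7, 2 and 0, with medians of 1.48, 0.44 and -0.13. Of 8 B cell genes, 6, 5 and 3 were lower, with a median of -0.56 at day 2, while T cell genes had 5, 1 and 3 lower of 9. Of 7 CD16 monocyte genes, 2, 1 and 1 were higher and 1 was lower on each day, of 7 basophil and eosinophil genes 1 was higher, at day 5, and of 6 erythroid genes 2 were lower, at day 30 (median -0.90). The range of the mean level of the neutrophil list was -0.40 to 1.20 before irradiation, 0.32 to 2.04 at day 2, 0.17 to 1.64 at day 5 and 0.13 to 2.17 at day 30. All genes of these lists that were tested were above background on at least 1 array of each group. Their part in the Fc receptor results was not tested.

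Over the 20 arrays the neutrophil list had a Pearson r of 0.90 with FCGR2B A_23_P34644 and 0.84 with FCAR A_23_P208768, and these were 0.87 and 0.86 without the 2 arrays farthest from the median of the list. FCER1G A_23_P160849 had r = 0.89 with the monocyte list (0.81 without the 2 farthest arrays) and 0.70 with the neutrophil list (0.54). For FCGR2B A_23_P34644 the r was 0.76 with the monocyte list (0.72) and -0.79 with the B cell list (-0.68). FCGR2A had r = 0.66 with the monocyte list (0.49) and 0.62 with the neutrophil list (0.38). Its r was 0.13 with the platelet list (0.10) and -0.78 with the B cell list (-0.81).

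**Figure D5:**
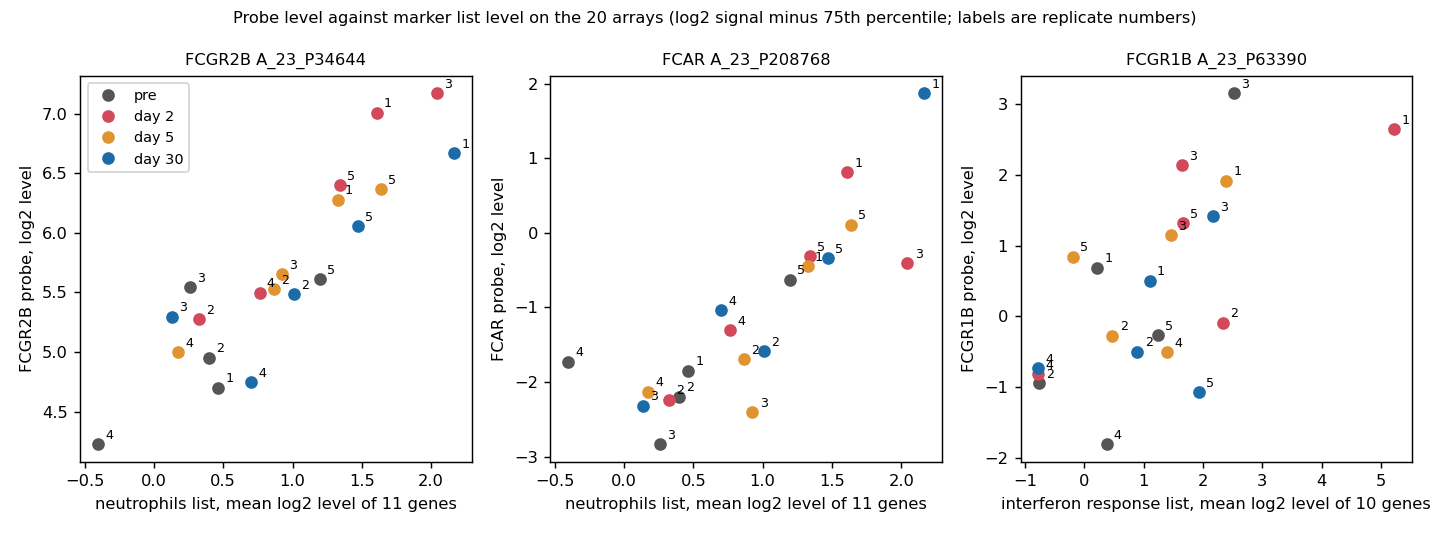
Log2 level of FCGR2B, FCAR and FCGR1B probes against the mean log2 level of the neutrophil list (11 genes, first 2 panels) or the interferon response list (10 genes, last panel) on 20 arrays, both relative to the 75th percentile; colours are groups and labels are replicate numbers. Replicate 1 at day 30 is the highest array for FCAR and for the neutrophil list (2.17), and replicate 1 at day 2 is the highest of the interferon list (5.22).

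The interferon response list, 10 genes induced by interferon, had a median change of 1.29 at day 2 with 10 of 10 fitted changes above 0 and 0 at an unadjusted p under 0.05. Its mean level, in log2 units relative to the 75th percentile, was 0.21, -0.76, 2.52, 0.37 and 1.24 before irradiation in replicates 1 to 5 and 5.22, 2.33, 1.65, -0.77 and 1.66 at day 2. It was thus higher in 3 and lower in 2 of 5 pairs, and the mean change of the list was 1.30 with all pairs and 0.37 without replicate 1, an omission chosen after seeing the data. The FCGR1 family probe had r = 0.65 with this list, and 0.55 without the 2 arrays farthest from its median. Among the probes most like it over 20 arrays, of 19941 compared, were ETV7 (r = 0.901), BATF2 (0.883), WARS (0.879) and PSMB10 (0.857). For FCGR2A they were FNIP1 (0.899), PLXNC1 (0.888), ZNFX1 (0.888), REPS2 (0.882) and LONRF3 (0.880), and for FCGR2B FCGR2C, RARA (0.934), ALOX5AP (0.930), TLR2 (0.928) and BRI3 (0.922).
Among those nearest to FCGR3A were NINJ1 (0.883), GUCY1B3 (0.873), FGR (0.845) and ARHGEF10L (0.837). FCER1G was nearest to SULT1A4 (0.933), CEBPA (0.920), PSAP (0.904), FGR (0.902) and SULT1A2 (0.890), and FCAR to GPR137B (0.960), SLCO4C1 (0.951), SAMSN1 (0.944), NDEL1 (0.943) and NT5DC1 (0.934). Among the members, FCGR3A and FCER1G A_23_P160849 had r = 0.75, FCGR1B and FCGR2A 0.761, and FCGR3A and the FCAR probes 0.151 and 0.087. The highest of many correlations is chosen by its size, and arrays of 1 replicate number may share an animal.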

How the data were processed

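One-color arrays (Agilent Whole Human Genome 4x44K v2) were hybridized with blood RNA of 5 samples per group. The authors deposited scanner intensities for each array, background-subtracted and detrended by Feature Extraction but not scaled between arrays, and a table of log2 values for part of the probes. The submitters' processing notes name Feature Extraction 10.7 and the file headers 12.0.2.2. In the deposited log2 table (5885 rows, 8 of the member probes), 96.9% to 97.2% of values per array equalled the log2 processed intensity plus 1 constant, within 0.001; the filter behind its rows is not given in the sources used here.

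Control spots and outlier spots were left out (0.619% to 1.12% of spots per array). Log2 processed intensities were averaged per probe, and each array's 75th percentile was taken off. Comparisons were fitted in limma 3.58.1 (R 4.3.3) on the 10 arrays concerned, blocked by replicate number, over 19961 probes exceeding background on at least 5 arrays with values in at least 4 of 5 pairs. Pairing comes from the study's methods, since the labels number replicates without tying them to animals. Deviations from group means of same-numbered arrays had a median correlation of 0.28 (range -0.16 to 0.65). For other numbers it was -0.07 (range -0.51 to 0.42), so the ranges overlapped. Deviations within a group sum to 0, which ties the 2 medians together, so the second is no independent reference. List genes were represented by their brightest complete probe. Per pathway list and day, up to 5 genes were named, those with the largest change among genes with p under 0.05 and 1 direction in every pair, or else the gene with the smallest p. FYN at day 2, TYROBP at day 30, CD247 and the named NK cell genes were given outside this rule. Some genes that the naming rules chose are not reported here, though list counts and medians include all genes tested. Members and lists were chosen with earlier results of these data known. The fit was tested on simulated data. Alternatives covered scaling, background correction, filters, the deposited log2 values, blocks, the arrays in the fit, an ordinary paired test and leaving out each replicate. The number of arrays limits the precision.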

Additional observations from a re-analysis of the deposited data

How the results depend on the processing

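Against pre-irradiation, 4 of 402 refitted changes of single probes changed sign, all at day 30 and with a replicate left out: FCGR1B without replicate 3 (0.13, range over the 5 omissions -0.57 to 0.13), FCGR2A without replicate 4 (-0.15, range -0.15 to 0.50), and FCER1G A_33_P3272628 without replicate 1 (-0.054) or 2 (-0.03, range -0.054 to 0.21). No member probe was called in the main fits. At day 30, 0 members were called with normexp, the deposited log2 values or 1 fit, which called 952 of 19961, 334 of 5653 and 121 of 19961 probes. At day 2, 3 probes were called with the filter on all 20 arrays (190 of 15339 of all probes). The deposited log2 values called 2 (327 of 5653) and 1 fit with all 20 arrays called 3 (343 of 19961). With a replicate left out, 0 to 2 were called at day 2 (0 to 588 of 19961). At day 30 the filter on all 20 arrays called 1, FCGR3A (695 of 15339). These settings gave FCGR2B (A_23_P34644, A_33_P3327617) changes of 1.26 and 1.29 with that filter and in 1 fit, 1.30 and 1.33 with the deposited values and 1.498 and 1.53 without replicate 2, FCER1G A_23_P160849 0.66 with the filter, and FCGR3A 0.69 at day 2 in 1 fit and 0.76 at day 30 with the filter.

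The number of probes at an unadjusted p under 0.05, with the share of all probes in either direction under the same setting, was 7 at day 2 (15.0%), 3 with normexp (12.3%) and 3 without the replicate block (11%), and 5 to 7 with a replicate left out (8.97% to 20.1%). At day 5 it was 4 (11.2%), with 1 under median scaling (9.99%), 1 without the replicate block (4.3%), 2 with all 20 arrays in 1 fit (10.2%), 0 with the slide as a block (5.01%), 2 in the ordinary paired test (10.2%) and 2 to 7 with a replicate left out (7.93% to 11.5%). At day 30 it was 3 (17.5%), with 5 under median scaling (17.2%), 5 with the filter on all 20 arrays (19.9%), 5 with all 20 arrays in 1 fit (19.8%), 1 without the replicate block (14.7%), 1 in the ordinary paired test (14.2%) and 3 to 4 with a replicate left out (14.0% to 15.1%). Without the pairing no member was called either.

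From day 2 to day 5 the count of 0 became 3 with the slide as a block and 0 to 4 with a replicate left out. From day 5 to day 30 the count of 0 became 1 under quantile normalization, median scaling, normexp, 1 fit and the ordinary paired test, 2 with the filter on all 20 arrays and 0 to 2 with a replicate left out. From day 2 to day 30 the count of 2 became 1 with normexp, 0 without the replicate block, with the slide as a block or in the ordinary paired test, and 0 to 3 with a replicate left out. The share of all probes under these settings was 2.16% to 5.54% from day 2 to day 5, 4.39% to 12.1% from day 5 to day 30 and 6.09% to 15.7% from day 2 to day 30.

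Further sign changes were between days. From day 2 to day 5, normexp gave FCGR2A 0.31, FCGR2B A_23_P34644 0.0075, FCGR3A 0.13 and FCER1G A_23_P160849 0.28. From day 5 to day 30, median scaling gave FCGR2B 0.071 (A_23_P34644) and 0.034 (A_33_P3327617) and FCER1G A_33_P3272628 0.032, and normexp gave FCER1G -0.066 (A_23_P160849) and 0.033 (A_33_P3272628). With a replicate left out, the day 5 to day 30 changes ran from -0.45 to 0.058 for FCGR2A (0.058 without replicate 5), -0.31 to 0.029 for FCGR2B A_33_P3327617 (0.029 without replicate 5), -0.0068 to 0.30 for FCER1G A_23_P160849 (-0.0068 without replicate 4) and -0.33 to 0.0049 for FCER1G A_33_P3272628 (0.0049 without replicate 3). From day 2 to day 30, FCER1G A_23_P160849 was at 0.22 with normexp and ran from -0.31 to 0.026 with a replicate left out (0.02 without replicate 3 and 0.026 without replicate 5), and FCAR A_23_P208768 ran from -0.25 to 0.49 (-0.25, -0.15 and -0.06 without replicates 1, 2 and 4).

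Scaling to other references left the median change of all probes at day 2 near 0. Normexp moved it from -0.04 to 0.17, and at day 30 it was 0.11. The median of the 9 member probes moved the other way at day 2, from 0.78 to 0.42, and the main FCER1G probe went from 0.66 to 0.15. The shift of all probes therefore cannot be taken off the normexp change of a single probe. With the deposited values the median of all probes was 0.12 at day 2 and at day 30. That median is over 5653 probes in place of 19961, so it is not a like shift. The cause of these differences was not tested. The number of pairs was 5, and arrays had a median signal of 1.68 to 2.46 times background.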
